A study of Homo sapiens with 12 samples.

Results

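SOX2 and SOX17 binding sites on the short arm of human chromosome 12 are described here, as far as they fall among the authors' called peaks. Chromatin immunoprecipitation and sequencing (ChIP-seq) was done on 2102EP, an embryonal carcinoma-like germ cell tumour line, with an antibody against SOX2, and on TCam-2, a seminoma-like line, with an antibody against SOX17. The 12 libraries formed 4 groups of 3: ChIP and 2% input of each line, from biological replicates. None of the labels gives a treatment or a genetic change of either line. Each factor has 1 merged peak list, with no value per library and no read totals, so depth is unknown and no value below has a replicate error. The lists differ in antibody and in cell line at once, and whatever separates them is a contrast of whole experiments. Members were all peaks of chromosome 12 that end at or before 35000000 on hg38: 296 of 17795 SOX2 peaks (1.66%) and 279 of 17507 SOX17 peaks (1.59%). The rest of chromosome 12 held 666 SOX2 and 618 SOX17 peaks.

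SOX2 and SOX17 are transcription factors that bend DNA at short AT-rich sites through an HMG box, and both can bind as partners of the POU factor OCT4. SOX2 with OCT4 is known for the canonical composite site, a SOX site and an OCT site with 1 base between them. SOX17 with OCT4 is known for the compressed site, in which that base is missing. Embryonal carcinoma cells use SOX2 as a pluripotency factor, whereas seminoma cells and human primordial germ cells lack it and express SOX17. The short arm of chromosome 12 carries NANOG, DPPA3 and GDF3 in a cluster of early embryonic genes. Gain of this arm, often as an isochromosome, is the typical chromosome change of germ cell tumours of the adult testis. The peak lists hold no copy numbers, and the part of copy number in the scores and peak densities below was not tested.

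Compressed composite sites were found in SOX17 peaks of the arm and a canonical one in a SOX2 peak, and the sequences that carry them are shown first. A SOX site was CATTGT or CTTTGT, an OCT site was ATGCAAAT or ATGCTAAT with at most 1 mismatch, and both strands were searched within 100 bp of the peak centre. A composite site also counts as a SOX site and as an OCT site. In TCam-2, 7 of 279 SOX17 peaks (2.51%) held the compressed site and 0 the canonical site, a count of 0 that allows up to 1.08%. In 2102EP, 1 of 296 SOX2 peaks (0.338%) held the canonical site and 0 the compressed site, which allows up to 1.01%. On the other chromosomes 2.81% of SOX17 peaks held the compressed site and 1.69% of SOX2 peaks the canonical site, so the arm shares were not higher. Windows 2000 bp to either side of the peaks held neither composite (0 of 558 windows for SOX17 and 0 of 592 for SOX2). The 7 SOX17 peaks lay nearest to LRTM2, PRMT8, A2ML1, SLCO1B7 (2 peaks), FAR2 and PKP2, and none overlapped a SOX2 peak. The sequences below are the hg38 plus strand of each peak, with the composite site in capitals. The PRMT8, A2ML1 and FAR2 peaks and 1 of the SLCO1B7 peaks lie in endogenous retrovirus sequence annotated as Harlequin-int, HERV17-int or HERV9N-int, with SOX17 scores of 275, 153, 236 and 101. All of these carry the same letters at the site in closely similar surrounding sequence, so they are not separate examples of it. PRMT8 is shown because its score was the highest of the 7.
PRMT8, SOX17 peak chr12:3428091-3428196: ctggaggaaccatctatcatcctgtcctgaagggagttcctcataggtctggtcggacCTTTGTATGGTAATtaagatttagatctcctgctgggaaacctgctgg
The other 3 peaks are shown because they lie outside those elements. The sites of LRTM2 and PKP2 are on the minus strand. The LRTM2 peak lies in a MER21C long terminal repeat (LTR), whereas the PKP2 and the other SLCO1B7 peak lie in introns outside annotated repeats. Their scores were 55.3, 78.7 and 32.3.
LRTM2, SOX17 peak chr12:1794882-1794996: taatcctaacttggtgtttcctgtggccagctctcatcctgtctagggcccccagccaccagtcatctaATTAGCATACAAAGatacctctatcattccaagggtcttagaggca
SLCO1B7, SOX17 peak chr12:21016030-21016138: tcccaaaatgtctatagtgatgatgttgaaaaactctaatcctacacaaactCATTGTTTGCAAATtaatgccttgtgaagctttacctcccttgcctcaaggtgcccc
PKP2, SOX17 peak chr12:32877573-32877687: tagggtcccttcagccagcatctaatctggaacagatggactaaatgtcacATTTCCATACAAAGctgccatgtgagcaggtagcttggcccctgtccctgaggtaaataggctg
The single SOX2 peak with a canonical site lay nearest to MIR920, inside SOX5, in a MER21C LTR, with a score of 60.
MIR920, SOX2 peak chr12:24216063-24216170: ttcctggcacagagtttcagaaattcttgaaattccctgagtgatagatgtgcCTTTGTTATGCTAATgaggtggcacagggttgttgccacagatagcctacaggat

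The SOX17 peak of TEAD4, the second highest of the arm in its list, holds TTTTGTATGCTAAT, which is the compressed site with 1 mismatch in its SOX part. After this was seen, composite sites were also counted inside the peaks with 1 mismatch allowed in the SOX part. By this count 25 SOX17 peaks (8.96%) held the compressed site and 4 (1.43%) the canonical site, and SOX sites 2 to 10 bases from an OCT site were found in 0 to 6 peaks per spacing, with a median of 2. For SOX2 the order was the opposite, with 22 peaks (7.43%) holding the canonical site and 1 (0.338%) the compressed site, beside 1 to 5 peaks at each other spacing, with a median of 4. The 1 SOX2 peak with the compressed site was the TEAD4 peak, which overlaps the SOX17 peak. Of the 25 SOX17 peaks, 2 were shared with SOX2 and 10 stood in the highest score decile of their list. Among all SOX17 peaks of the arm these shares were 29.7% and 23.3%. The 10 peaks include the endogenous retrovirus peaks of PRMT8, FAR2, A2ML1 and SLCO1B7 given above. Those are not separate examples of the site, so the 10 cannot be read as independent peaks. Of the 22 SOX2 peaks, 3 were shared with SOX17 and 6 stood in the highest decile, beside 28.0% and 30.7% of all SOX2 peaks of the arm. The TEAD4 and PLEKHG6 peaks of SOX17 are shown beside a LINC00942 and a FAR2 peak of SOX2, as examples of both spacings.
TEAD4, SOX17 peak chr12:2988544-2988648: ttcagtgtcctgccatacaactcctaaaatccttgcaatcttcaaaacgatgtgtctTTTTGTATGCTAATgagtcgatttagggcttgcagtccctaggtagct
PLEKHG6, SOX17 peak chr12:6319802-6319904: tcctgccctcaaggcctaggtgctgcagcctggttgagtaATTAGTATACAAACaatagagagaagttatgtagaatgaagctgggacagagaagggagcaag
LINC00942, SOX2 peak chr12:1420017-1420126: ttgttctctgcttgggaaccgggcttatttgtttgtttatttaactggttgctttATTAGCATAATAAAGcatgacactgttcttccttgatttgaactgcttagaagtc
FAR2, SOX2 peak chr12:28830466-28830568: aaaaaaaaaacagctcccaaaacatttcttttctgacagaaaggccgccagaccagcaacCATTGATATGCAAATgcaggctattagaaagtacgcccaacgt
The SOX2 peak of FAR2 above lies in an LTR9B element. SOX sites alone were found within 100 bp of the centre in 183 SOX2 peaks (61.8%) and 175 SOX17 peaks (62.7%), beside 25.7% and 24.0% of the flanking windows. OCT sites were found in 53.7% of SOX2 and 50.5% of SOX17 peaks, beside 31.1% and 31.9% of the flanks. A match describes letters and does not show that a factor sits on them.

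The arm was chosen by the scores of its peaks, so the scores are given as a description with no test. Intervals of medians treat the peaks as independent and cover counting over peaks only. Because of that choice, intervals that do not meet are no evidence of a difference. The score is the authors' peak score, whose scale is not stated, and it was compared only within a list. SOX2 peaks of the arm had a median score of 47.4 (95% binomial interval 43.4 to 56.0), against 26.7 on the rest of chromosome 12 (25.1 to 28.8) and 23.7 on the other chromosomes. For SOX17 the medians were 40.7 (37.7 to 46.0), 31.7 (30.0 to 34.0) and 26.3. Among 25 units, the other chromosomes and the 2 parts of chromosome 12, the arm had the highest median in both lists. The other chromosomes were taken whole, so no other chromosome arm was ranked. Chromosome 20 came second in both, with 27.0 for SOX2 and 36.3 for SOX17.

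The whole score range was shifted, not only its upper end. Against the rest of chromosome 12, the ratio of SOX2 scores was 1.61 at the 10th percentile (22.3 over 13.9), 1.78 at the median and 1.89 at the 90th percentile (188 over 99.8). The SOX17 ratios were 1.35, 1.28 and 1.60, so the shift was smaller at the median than for SOX2. Of the SOX2 peaks of the arm, 91 (30.7%) stood in the highest score decile of the list and 1 (0.338%) in the lowest. The rest of chromosome 12 had 93 SOX2 peaks (13.96%) in the highest decile and 31 (4.66%) in the lowest. For SOX17, 65 peaks (23.3%) were in the highest decile and 0 of 279 in the lowest, against 80 (12.9%) and 15 (2.43%) on the rest of the chromosome.

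**Figure D1:**
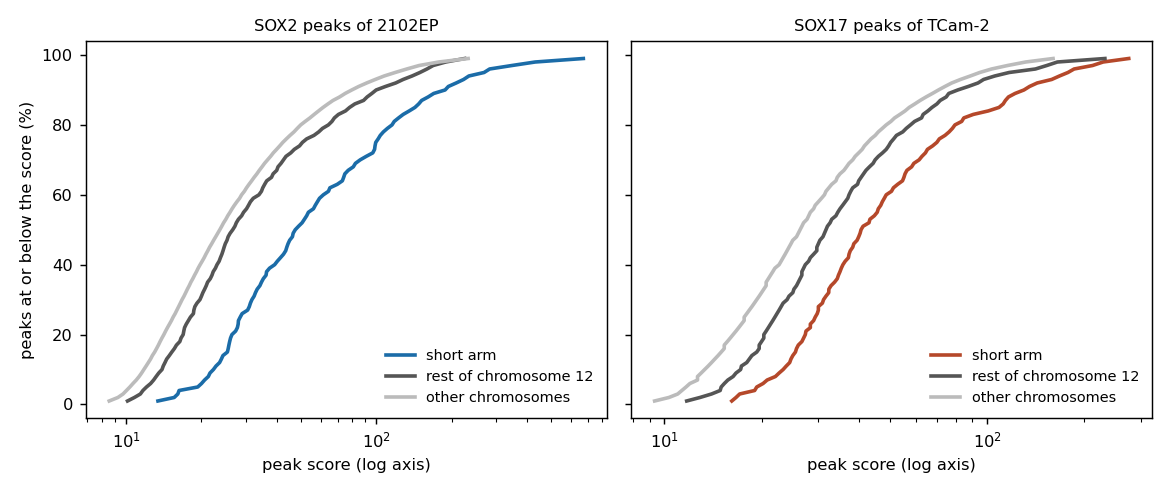
Cumulative share of peaks (vertical axis, percent) by peak score (horizontal log axis) for the SOX2 list of 2102EP and the SOX17 list of TCam-2, drawn at percentiles 1 to 99 for the short arm of chromosome 12, its rest and the other chromosomes. The curve of the arm lies to the right of the curve of the rest over most of its height, with medians of 47.4 against 26.7 for SOX2 and 40.7 against 31.7 for SOX17.

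Medians were higher on the arm in each class of peaks compared. Shared SOX2 peaks had a median of 52.8 on the arm and 30.9 on the rest of the chromosome, and unshared ones 46.3 and 25.5. Shared SOX17 peaks had 55.0 and 39.7, and unshared ones 37.5 and 30.0. Peaks in LTRs, the remnants of endogenous retroviruses, had SOX2 medians of 55.8 against 23.9, the widest gap of that list at a ratio of 2.33, and SOX17 medians of 45.8 against 27.3, a ratio of 1.68. Peaks outside annotated repeats had 46.4 against 28.8 for SOX2 and 43.3 against 32.7 for SOX17. Peaks in LINEs, another repeat class, had 41.7 against 24.4 for SOX2 and 41.2 against 37.7 for SOX17, where the interval on the arm, 31.3 to 56.3, spanned both. Promoter peaks had 36.1 (11 peaks, interval 20.5 to 86.5) against 28.9 for SOX2 and 51.2 (14 peaks, 24.0 to 100) against 29.0 for SOX17.

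Peaks were also denser on the arm, and the excess lay among high scores. Per Mb of known bases, the arm held 8.47 SOX2 peaks against 6.78 on the rest of the chromosome and 7.99 SOX17 peaks against 6.29. Peaks at or above the median score of their list numbered 257 for SOX2 on the arm, or 7.36 per Mb against 3.89. Below that median there were 39, or 1.12 per Mb against 2.89, so low-scoring SOX2 peaks were sparser on the arm than beyond it. SOX17 showed the same order, with 6.56 against 3.97 per Mb at or above the median and 1.43 against 2.32 below it.

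The SOX2 scores were high along most of the arm and lower at 10 to 15 Mb. The medians of its 7 bins of 5 Mb ran from 34.8 to 64.9, with the highest at 20 to 25 Mb, where SOX5 lies, and the lowest at 10 to 15 Mb. The 20 bins of the rest of the chromosome ran from 21.7 to 34.9, and 6 of the 7 arm bins lay above all of them. Past the limit the SOX2 median was 25.5 in both of the next bins. SOX17 showed no such step at the limit. Its arm bins ran from 29.0 to 51.0, and the bins at 35 to 40 Mb (61.3, 20 peaks) and 40 to 45 Mb (46.0, 19 peaks) were as high, before a fall to 26.7 at 45 to 50 Mb. In all, 14 of 20 bins of the rest were at or above the lowest SOX17 arm bin, which lay at 15 to 20 Mb.

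**Figure D2:**
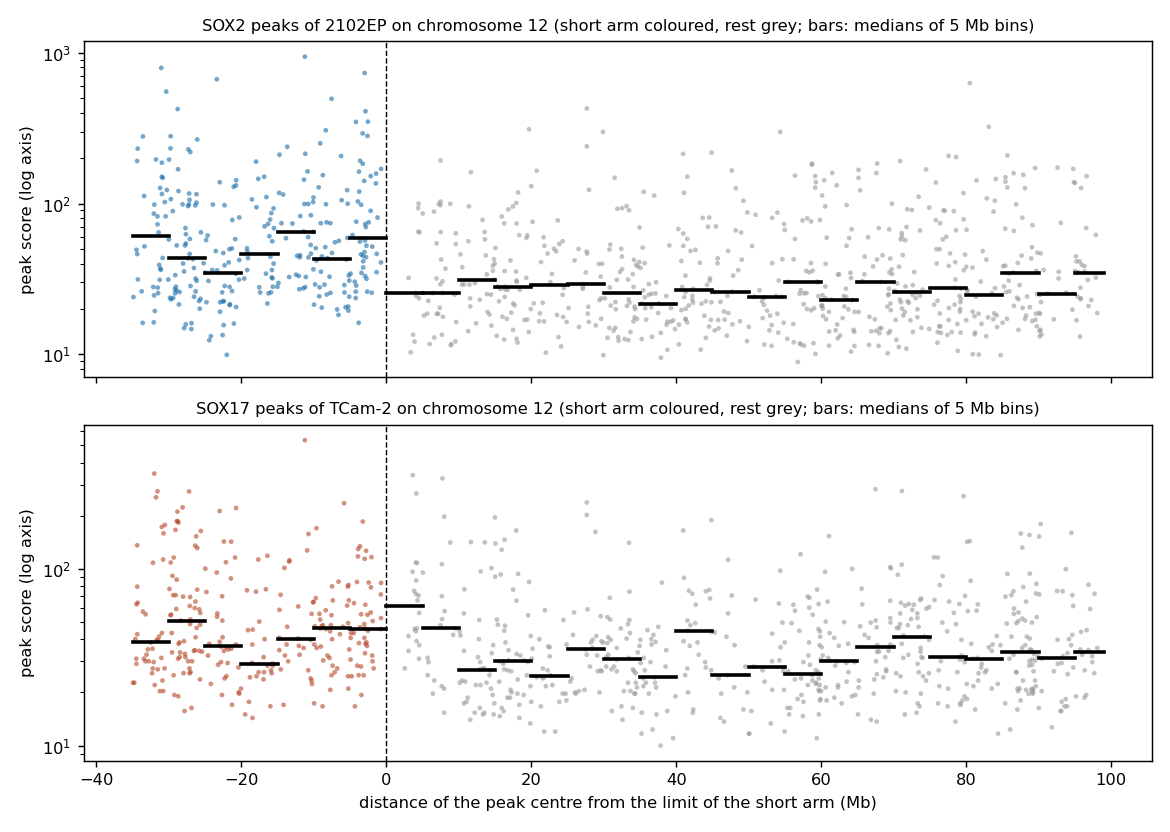
Peak score (vertical log axis) by distance of the peak centre from the limit of the short arm in Mb (horizontal axis, negative on the arm) for SOX2 in 2102EP and SOX17 in TCam-2, with each peak as a point and the median of each 5 Mb bin as a bar. SOX2 bars fall from 59.4 in the last arm bin to 25.5 past the limit, while the SOX17 bars go from 45.8 to 61.3 and 46.0 before they fall to 26.7.

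The limit fell in a stretch with few peaks. The last SOX2 peaks inside, all assigned to ALG10, a glucosyltransferase gene of N-glycosylation, ended at 33795194, 34265760 and 34273975 and had scores of 80.8, 40.7 and 170. The first outside, assigned to ALG10B (2 peaks) and CPNE8, started at 38056744, 38357727 and 38695132 with scores of 32.1, 10.3 and 13.5. The last SOX17 peaks inside, also at ALG10, had scores of 71.7, 52.7 and 83.3, and the first 3 outside, at ALG10B, had 27.3, 41.7 and 34.3. The last 2 peaks inside overlapped between the lists, and all 4 of them lay in LTR7 elements.

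The members were spread over the arm. Neighbouring SOX2 peaks were a median of 68083 bp apart and neighbouring SOX17 peaks 79092 bp. The widest SOX2 gap, between 1629972 and 2825232, spanned about 1195375 bp between centres, and the widest SOX17 gap, between 21645224 and 22822118, about 1177014 bp. Peaks per Mb were highest at 5 to 10 Mb in both lists, with 11 for SOX2 and 12.2 for SOX17, the bin that holds CD9, GDF3, NANOG and PHC1. Few members were at promoters: 11 SOX2 peaks (3.72%) and 14 SOX17 peaks (5.02%) were annotated as promoter. The median distance to the nearest transcription start site (TSS) was 30810 bp for SOX2 and 33445 bp for SOX17, and no member lay over 500000 bp away.

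SOX2 and SOX17 had 83 regions of the arm in common, defined by an overlap of at least 1 bp. They made up 28.0% of the SOX2 and 29.7% of the SOX17 members, and the median overlap was 104 bp. In 61 of the 83 regions the centres lay within 20 bp of each other. Of the peaks that were not shared, 29 of 213 SOX2 and 29 of 196 SOX17 peaks lay within 5000 bp of a peak of the other factor. Within 50000 bp there were 130 and 120. Like counts for the rest of chromosome 12 were not made, so these cannot be called few or many. Scores of the shared regions ranked differently in the lists. Both percentiles were above 90 in 15 regions and above the list median in 59, while in 9 regions they differed by more than 50 points, and Spearman's rho over the 83 regions was 0.278, given as a description. Taken list by list, 34 of the 83 SOX2 peaks and 30 of the 83 SOX17 peaks stood in the highest decile. The arm was chosen by its scores, and regions high in both lists were not counted elsewhere. The counts of 15 and 59 therefore do not show that the lists agree. The SOX2 percentile was the higher one in 42 regions and the SOX17 percentile in 41.

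The region of highest mean percentile was intronic in SOX5, which encodes another SOX transcription factor. Its SOX2 peak, chr12:23757656-23757788, had a score of 943 and rank 1 of the list, and its SOX17 peak, chr12:23757675-23757775, had 535 and rank 2. The SOX17 sequence is given because it lies inside the SOX2 peak. Its single SOX site is in capitals.
SOX5, SOX17 peak chr12:23757675-23757775: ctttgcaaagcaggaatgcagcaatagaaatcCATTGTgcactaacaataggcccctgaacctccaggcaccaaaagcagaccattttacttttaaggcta
Next came regions at TSPAN9, a tetraspanin gene (SOX2 score 196, SOX17 score 254), AMN1 (184 and 185, in an LTR8B element), PARP11 (187 and 173) and NINJ2-AS1 (191 and 136). LINC02443 (280 and 109), ETV6 (667 and 95.3), LINC02378 (146 and 113), TEAD4 (98.4 and 346) and FGF6 (102 and 177) completed the first 10. ETV6, an ETS family repressor gene, and TEAD4, the DNA-binding partner of YAP in the Hippo pathway, show the opposite order of the lists. The ETV6 region, 40702 bp before the TSS in a MER34C2 LTR, ranked 7 for SOX2 and 910 for SOX17. The TEAD4 region, in a MER21B LTR in an intron, ranked 1343 for SOX2 and 5 for SOX17. Wider gaps were seen at BMAL2-AS1, with a SOX2 percentile of 99.9 and a SOX17 percentile of 45.7, and at ATF7IP, with 41.3 and 99.7.

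**Figure D3:**
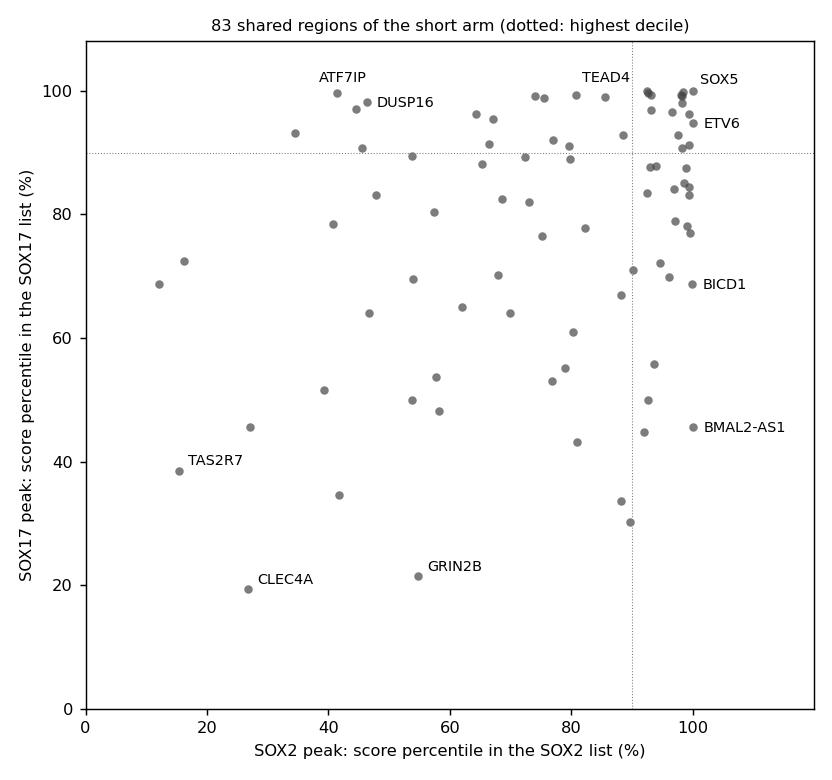
Score percentile of each of the 83 shared regions of the arm in the SOX2 list (horizontal axis, percent) and in the SOX17 list (vertical axis, percent), with selected regions named by their nearest gene and dotted lines at the highest decile. Of the 83 points, 15 lie in the highest decile of both lists, among them SOX5, TEAD4 and ETV6, while BMAL2-AS1 and ATF7IP lie high in 1 list only.

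Among unshared peaks, the highest SOX2 score was that of an intergenic peak 71486 bp before PARP11, which encodes an ADP-ribosyltransferase (chr12:3944878-3944990, score 795, rank 3). It holds 3 SOX sites, in capitals.
PARP11, SOX2 peak chr12:3944878-3944990: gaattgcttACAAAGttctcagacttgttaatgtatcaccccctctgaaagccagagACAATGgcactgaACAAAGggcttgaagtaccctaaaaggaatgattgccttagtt
The next was in a MER34A1 LTR downstream of the TSS of RESF1, retroelement silencing factor 1, which the authors' file lists as KIAA1551 (chr12:32013611-32013737, score 735, rank 4). Its SOX site is on the minus strand.
RESF1, SOX2 peak chr12:32013611-32013737: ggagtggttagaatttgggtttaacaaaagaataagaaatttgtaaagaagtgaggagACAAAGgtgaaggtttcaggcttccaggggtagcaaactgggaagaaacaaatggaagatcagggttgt
The other genes among the 10 highest SOX2 scores were AKAP3, which encodes an anchoring protein of the sperm tail (553), BMAL2-AS1 (495), CD9 (423), the dynein adaptor gene BICD1 (409), FGD4 (349) and LINC00941 (348). Besides SOX5, TEAD4, TSPAN9 and CD9 (211), the 10 highest SOX17 scores lay at PRMT8 (275), NANOG (274), FAR2 (236), the pseudogene DSTNP2 (223), ATF7IP (221, in a MER4A1 LTR) and BCL2L14 (213, in an LTR40a element). Of the 10 highest-scoring SOX2 peaks of all chromosomes 4 lay on the arm and 1 on the rest of chromosome 12. Of the 1000 highest, 58 lay on the arm and 57 on the rest. For SOX17 these counts were 2 and 2 of the highest 10, and 47 and 53 of the highest 1000. The arm holds 1.66% of all SOX2 and 1.59% of all SOX17 peaks, and the rest 3.74% and 3.53%. These counts restate the scores by which the arm was chosen.

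The peaks named 183 nearest genes, of which 109 were named in both lists, 35 by SOX2 alone and 39 by SOX17 alone. Of the 109 genes, 67 had a shared peak and 42 had peaks of both factors at separate sites. Genes named in both lists were not counted for other regions, so this overlap has no background and cannot be called large or small. Of the 288 protein-coding genes that RefSeq places on the arm, 37.5% were nearest to a SOX2 peak and 38.9% to a SOX17 peak, and the counts below are read beside these shares. Nearest genes are positions and do not show which gene a site acts on. SOX2 peaks were most numerous at SOX5 (9), BICD1 (8), PLEKHA5 (8) and TMTC1 (7), followed by GRIN2B, ITPR2 and PARP11 (6 each). SOX17 peaks were most numerous at TMTC1 (11), NTF3 (6), PKP2 (6) and BICD1 (5), followed by 9 genes with 4 peaks each, among them ALG10, SOX5, ETV6 and CCND2.

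Of 12 genes of the pluripotency cluster around NANOG, 8 were nearest to a SOX2 peak and 6 to a SOX17 peak. The 12 SOX2 peaks had a median score of 98.0, beside 47.4 for all SOX2 peaks of the arm, and the 13 SOX17 peaks 51.7, beside 40.7. NANOG, the homeobox gene of pluripotent cells, had a SOX17 peak 3712 bp before its TSS with a score of 274 (rank 19) and a SOX2 peak 1656 bp before it with 117 (rank 987). The sites do not overlap, and each holds 2 SOX sites, in capitals.
NANOG, SOX17 peak chr12:7785634-7785735: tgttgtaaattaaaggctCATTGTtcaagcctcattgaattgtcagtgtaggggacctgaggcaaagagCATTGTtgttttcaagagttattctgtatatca
NANOG, SOX2 peak chr12:7787681-7787799: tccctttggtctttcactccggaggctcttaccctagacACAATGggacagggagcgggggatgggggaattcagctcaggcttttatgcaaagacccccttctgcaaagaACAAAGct
GDF3, a TGF-beta family ligand gene of pluripotent cells, had a SOX2 peak 1045 bp past its TSS, in a MER5A1 DNA transposon, with a score of 229 and no SOX17 peak. PHC1, a Polycomb gene, had a shared region 2657 bp before the TSS, with 266 for SOX2 and 76.3 for SOX17, and a second SOX17 peak with 131. At SLC2A3, the neuronal glucose transporter gene, the highest SOX2 score was 220 and the highest SOX17 score 69.3, the latter at the promoter. No peak of either list was nearest to DPPA3, a gene of the early embryo and germ line.

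Of 16 genes for transcription factors and chromatin proteins, 8 had 28 SOX2 peaks with a median score of 59.2 and 9 had 22 SOX17 peaks with 45.7. Shared peaks made up 8 of them in each list. SOX5 had 9 SOX2 peaks, with scores from 27.4 to 943, and 4 SOX17 peaks, from 24.0 to 535, and its promoter was covered by both (53.2 and 24.0). RESF1 had 3 SOX2 peaks (47.7 to 735) and 4 SOX17 peaks (40.7 to 114), none of them shared, among them a SOX17 peak at the promoter. The SOX2 and SOX17 peaks in LTRs 54255 and 52972 bp past its TSS lay 1283 bp apart. ETV6 had 2 SOX2 peaks, both shared, and 4 SOX17 peaks. ATF7IP, a partner of the histone methyltransferase SETDB1, had 4 SOX2 peaks (20.6 to 143) and 2 SOX17 peaks (37.3 and 221).

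Growth and cell cycle genes had scores near those of the whole arm. Of 15 genes, 9 had 14 SOX2 peaks with a median of 45.3 and 6 had 14 SOX17 peaks with 40. CCND2, which encodes cyclin D2, had 2 SOX2 peaks (43.6 and 148) and 4 SOX17 peaks (20.3, 23.3, 113 and 159), all upstream of the TSS and none shared. PLEKHG6 had 2 SOX2 peaks (121 and 169) and 3 SOX17 peaks (19.0, 31.0 and 183). DUSP16, a MAP kinase phosphatase gene, shared a region with 22.5 for SOX2 and 143 for SOX17. CDKN1B, which encodes the cell cycle inhibitor p27, was nearest to no peak.

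Of 15 genes for ligands, receptors and signalling, 9 had SOX2 peaks and 9 had SOX17 peaks, with median scores of 75.1 and 43.3. CD9, a tetraspanin gene of germ cells and stem cells, had a SOX2 peak with a score of 423 in its first intron. The 2 SOX17 peaks of CD9 scored 186 in the same intron, 2870 bp from the SOX2 peak, and 211 upstream of the gene. FGD4, which encodes an activator of CDC42, had 4 peaks in each list, with 2 regions shared. FGF6 had the 1 shared region given above. NTF3, the neurotrophin 3 gene, had 2 SOX2 peaks (23.6 and 89.2) and 6 SOX17 peaks (25.0 to 116), none shared. PTHLH had a SOX2 peak with 55.3 and no SOX17 peak.

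Of 10 metabolic genes, 6 had 15 SOX2 peaks with a median score of 102 and 8 had 15 SOX17 peaks with 51.7, and 6 peaks of each list were shared. BCAT1, the cytosolic branched-chain aminotransferase gene, had 4 SOX2 peaks (36.6 to 110) and 2 SOX17 peaks (64.7 and 65.0), both shared, at deposited distances of 2007 bp before and 2380 bp past a TSS of the gene. LDHB, a lactate dehydrogenase gene, had a SOX17 peak with a score of 112 in an LTR5_Hs element and no SOX2 peak. GYS2, the liver glycogen synthase gene, shared a region with 32.6 for SOX2 and 110 for SOX17. PARP11, an ADP-ribosyltransferase gene, supplied 6 of the 15 SOX2 peaks (36.4 to 795, median 133) and 3 of the SOX17 peaks (31.3 to 173). The SOX2 median of 102 therefore rests in large part on 1 gene. SLC2A3 is counted in the pluripotency list too.

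Of 16 genes for ion channels and transporters, 8 had SOX2 peaks and 8 had SOX17 peaks, with median scores of 54.6 and 41.5. ITPR2, the inositol trisphosphate receptor type 2 gene, had 6 SOX2 peaks (24.9 to 306) and 3 SOX17 peaks (32.3 to 58.3). SLCO1A2, an organic anion transporter gene, shared a region in a MER4B-int element with 238 for SOX2 and 47.0 for SOX17. ANO2, a calcium-activated chloride channel gene, had 4 SOX2 peaks of at most 33.5 and 3 SOX17 peaks of up to 166. GRIN2B, an NMDA receptor subunit gene, and KCNA5, a potassium channel gene, had SOX2 peaks of up to 129 and 196 and SOX17 peaks of up to 116 and 77.0.

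Peaks near genes of other cell types were counted over 2 lists that do not hold every gene of these families. Of 16 genes of lectin-like and natural killer cell receptors, 4 had 1 SOX2 peak each and 3 had 1 SOX17 peak each, with median scores of 35.5 and 32.3. Among the 16, CLEC7A had the highest SOX2 score (57.3) and KLRB1 the highest SOX17 score (34.0). Outside the list, as seen after the values were known, CLEC4E had a SOX17 peak with 60, CLEC6A 2 SOX2 peaks of up to 37.4 and a SOX17 peak with 34.3, and KLRK1-AS1 a SOX2 peak with 61.4. Of 13 taste receptor and salivary protein genes in the list, TAS2R7 was the only one named, by a shared region in a THE1C-int element with 13.2 for SOX2 and 22.3 for SOX17. Taste receptor genes outside the list with a SOX2 peak were TAS2R46 (98.6) and TAS2R50 (36.2).

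**Figure D4:**
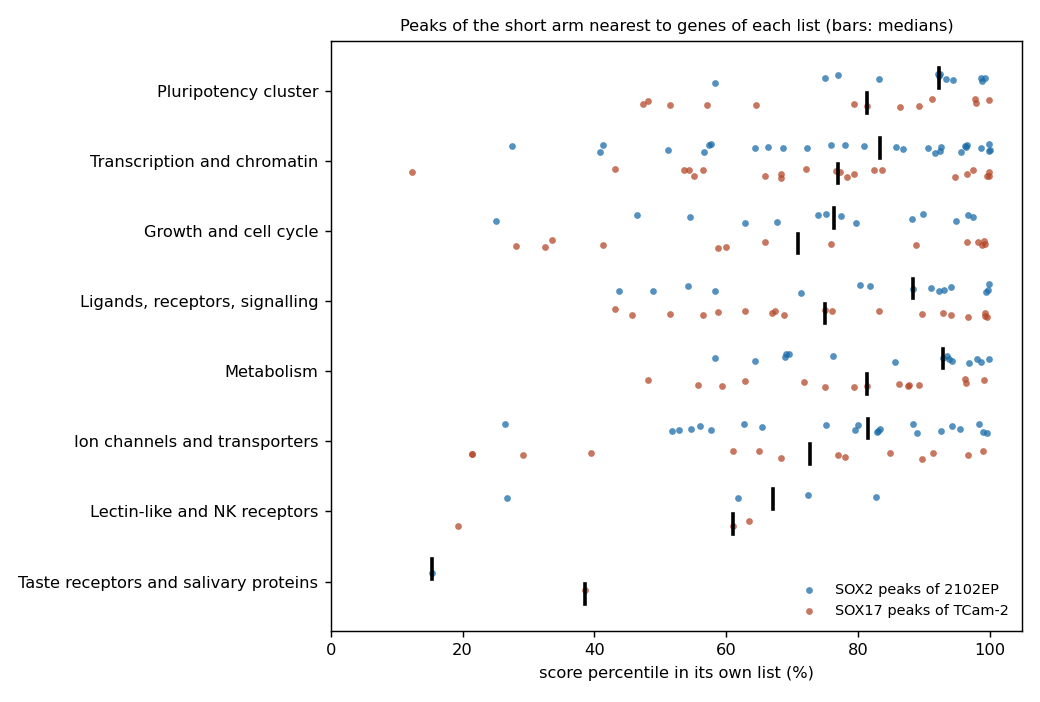
Score percentile within its own list (horizontal axis, percent) of each SOX2 and SOX17 peak of the arm whose nearest gene belongs to one of 8 gene lists (vertical axis, points spread vertically for visibility), with the median as a bar. SOX2 peaks of the pluripotency and metabolism lists have medians of 92.4 and 93.0, and the 2 lists of other cell types, which leave out some genes of these families that have peaks, have medians of 67.2 or less. PARP11 supplies 6 of the 15 SOX2 peaks of the metabolism list, and SLC2A3 is in both the pluripotency and the metabolism list.

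Measures that the choice of the arm did not use directly were compared between the arm and the rest of chromosome 12 by two-sided Fisher's exact tests, adjusted by Benjamini and Hochberg over 24 tests. Peaks are not independent samples, and these p-values cover counting over peaks, not the spread between cultures. No test passed an adjusted threshold of 0.05, the lowest adjusted p was 0.392, and 1 test had an unadjusted p under 0.05. SOX2 peaks were shared in 28.0% on the arm (83 of 296) and 23.4% on the rest (156 of 666), an odds ratio of 1.27 (95% interval 0.934 to 1.74; adjusted p = 0.563, Fisher's exact test). SOX17 peaks were shared in 29.7% (83 of 279) and 25.2% (156 of 618), an odds ratio of 1.25 (0.916 to 1.72; adjusted p = 0.563, Fisher's exact test). Both tests count the same 83 and 156 regions. Sharing also goes with score, by which the arm was chosen. On the other chromosomes it rose from 17.7% at or below the 50th percentile to 50.03% in the highest decile for SOX2. For SOX17 it rose from 19% to 37.9%.

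No location or repeat class passed the test in either list. For SOX2, 47.3% of arm peaks and 43.8% of the others lay in introns, 46.6% and 48.5% were intergenic, and 27.0% and 24.0% lay in LTRs. For SOX17, 49.8% and 44.7% lay in introns, 41.9% and 47.9% were intergenic, and 23.7% and 21.0% lay in LTRs. Promoters made up 3.72% and 4.20% of SOX2 peaks and 5.02% and 4.21% of SOX17 peaks.

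The 1 test with an unadjusted p under 0.05 was that of SOX sites in SOX17 peaks. They were found in 62.7% of arm peaks and 70.9% of the others (odds ratio 0.691, 95% interval 0.513 to 0.932; p = 0.0163, adjusted p = 0.392, Fisher's exact test). Among peaks outside annotated repeats, a comparison added after the data were seen, the odds ratio was 0.544 (p = 0.003, adjusted p = 0.048 over 16 tests, Fisher's exact test). That adjustment covers the tests of this comparison alone and not its choice among several. For all SOX2 peaks, in repeats or not, the shares were 61.8% and 63.1%. Compressed composites were found in 2.51% of SOX17 arm peaks and 1.78% of the others (odds ratio 1.42, 0.545 to 3.70; adjusted p = 0.834, Fisher's exact test). With 1 mismatch allowed in the SOX part and the search narrowed to the peak itself, these shares were 8.96% and 5.82%, an odds ratio of 1.59 (0.935 to 2.71; p = 0.0874, adjusted p = 0.349 over 4 tests, Fisher's exact test). Counts of canonical composites in SOX2 peaks were 1 of 296 and 10 of 666 (adjusted p = 0.563, Fisher's exact test). By the narrowed search with a mismatch, canonical composites had odds ratios of 0.755 in SOX2 peaks (22 against 64 peaks, 0.456 to 1.25) and 0.547 in SOX17 peaks (4 against 16, 0.181 to 1.65), both with an adjusted p of 0.449 by Fisher's exact test.

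**Figure D5:**
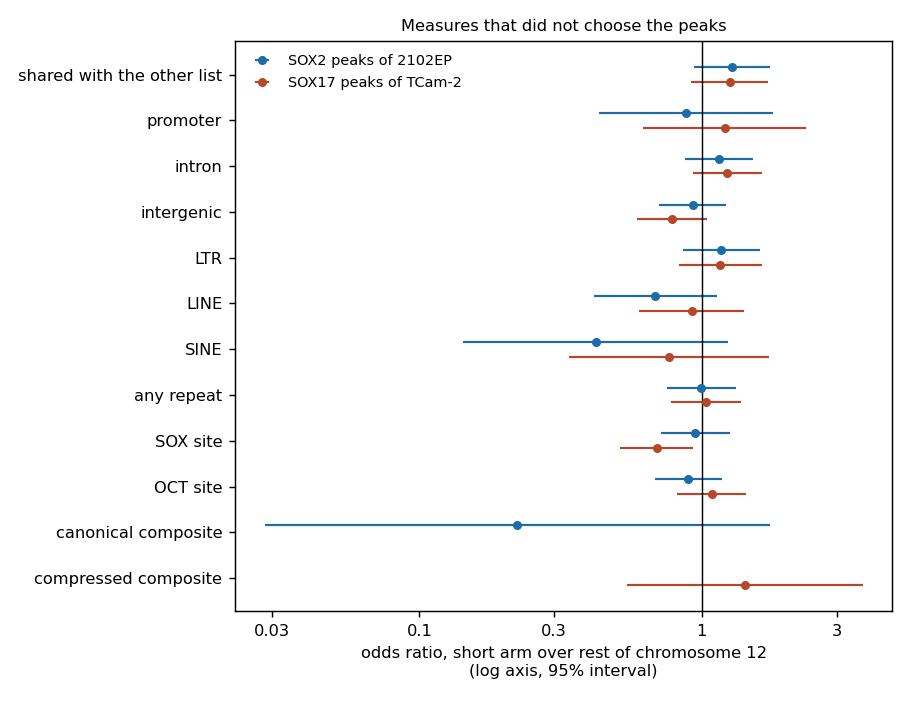
Odds ratio of the short arm over the rest of chromosome 12 with its 95% interval (horizontal log axis) for each measure that did not choose the arm (vertical axis), for SOX2 peaks of 2102EP and SOX17 peaks of TCam-2; measures with a count of 0 have no interval and are not drawn. All drawn intervals include 1 except that of SOX sites in SOX17 peaks, 0.513 to 0.932, whose adjusted p was 0.392.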

How the data were processed

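The design text states that reads were aligned to hg38 in CLC Genomics Workbench and that peaks came from HOMER, a tool the submitters' processing notes name too. Which HOMER version and settings were used, and how input entered peak calling, is not given in these sources. The authors deposited 1 merged, annotated peak list per factor, with a peak score of unstated scale, per the file headers. Multiplied by 3, the score was whole within 0.02 for 100% of the SOX17 members but 6.76% of the SOX2 members, and scores were therefore ranked only within a list, as percentiles. Positions, distances to the TSS, nearest genes and repeats are the authors' deposited values. Of the members whose gene was found in GENCODE 44, 96.8% (SOX2) and 97.7% (SOX17) had a deposited distance within 1000 bp of a distance to one of its TSSs.

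Members, gene lists and tests were chosen with earlier results of these data known. The rule for named genes took the 10 highest scores per list, the 10 highest shared regions, up to 4 members per gene list, genes named in every case such as NANOG, peaks with composite sites, the 3 peaks on either side of the limit, and the 5 genes with most peaks. PLEKHG6, LINC00942 and FAR2 as sequence examples and ATF7IP and BMAL2-AS1 as gaps in rank were chosen after their values were seen. Gene names follow RefSeq by gene number (291 and 275 peaks matched). Shares have 95% Wilson intervals and odds ratios 95% Woolf intervals, and counts of 0 allow 3 counts. Alternatives were other overlap rules, windows, mismatches, score limits and comparison regions. Some results that the rule names are not reported here. The steps were tested on simulated data. Python 3.11.15, pandas 2.3.3, scipy 1.17.1 and statsmodels 0.14.6 were used.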

Additional observations from a re-analysis of the deposited data

How the results depend on the processing

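No paired analysis was possible because each factor has 1 merged list with no values per library, and for the same reason no replicate could be left out. The SOX2 ratio of the median score on the arm to that on the rest of chromosome 12, 1.78, was 1.61 among peaks outside annotated repeats. The SOX17 ratio, 1.28, was 1.55 against all other chromosomes. With peaks at or above the list median alone, the ratio of peaks per Mb rose from 1.25 to 1.89 for SOX2 and from 1.27 to 1.65 for SOX17. Against chromosome 12 beyond 45 Mb, a comparison added after the data were seen, the SOX17 median ratio was 1.31. Shares of arm peaks in the highest decile moved to 41.0% (SOX2) and 36.1% (SOX17) among shared peaks and to 17.9% among unshared SOX17 peaks. The count of tests with an adjusted p under 0.05 was 0 and became 1 among peaks outside annotated repeats (16 tests), that of SOX sites in SOX17 peaks at an odds ratio of 0.544; the cause was not tested. Odds ratios changed side of 1, without passing the threshold, as follows. Against all other chromosomes, those of SOX2 promoters (1.52), SOX2 SOX sites (1.06), SOX17 LINEs (1.04), SOX17 OCT sites (0.946) and SOX17 compressed composites (0.89) did so. Among peaks outside annotated repeats that of SOX17 compressed composites (0.899) did so. Among peaks at or above the list median that of SOX2 repeats (1.19) did so, with no OCT mismatch those of SOX2 canonical composites (1.12) and SOX17 OCT sites (0.979), and with a window of 50 bp that of SOX17 OCT sites (0.972). The other odds ratios computed kept direction and side of the threshold, and those that became 0 or had no value were not compared. Depth is unknown, so sites too weak to be called cannot be told from absent ones.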

Other observations

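SOX2 and SOX17 peaks of the arm were also compared with other peaks, within classes of score percentile, by how many were shared. This split was chosen after the data were seen and is given with 95% Wilson intervals and no test. Scores were not matched inside a class. In the lowest decile stood 0.338% of SOX2 arm peaks, against 4.66% on the rest of chromosome 12 and 10.4% elsewhere. Sharing goes with score, so shares at or below the 50th percentile do not compare peaks of like score. Among SOX2 peaks in the highest score decile, 34 of 91 on the arm were shared (37.4%, 28.1 to 47.6), beside 39 of 93 on the rest of chromosome 12 (41.9%, 32.4 to 52.1) and 798 of 1595 on the other chromosomes (50.03%, 47.6 to 52.5). Between percentiles 50 and 75, the SOX2 shares were 20% (13.04 to 29.4) on the arm, 21.1% on the rest of chromosome 12 and 25.0% elsewhere. Between percentiles 75 and 90, the SOX2 shares were 21.1% (13.4 to 31.5) on the arm, 21.6% on the rest of chromosome 12 and 33.4% (31.6 to 35.3) elsewhere. Among SOX2 peaks at or below the 50th percentile, 15 of 39 arm peaks were shared (38.5%, 24.9 to 54.1), beside 19.6% and 17.7%. SOX17 peaks in the highest decile were shared in 30 of 65 on the arm (46.2%, 34.6 to 58.2), 37.5% (27.7 to 48.5) on the rest of chromosome 12 and 37.9% elsewhere. In the lower classes the order varied. Between percentiles 75 and 90 the SOX17 shares were 33.8% (23.5 to 46.0) on the arm, 37.1% and 33.6%. Between percentiles 50 and 75 they were 18.6% (12.1 to 27.4), 20.8% and 28.2% (26.9 to 29.6). At or below the 50th percentile they were 25% (15.2 to 38.2), 18.8% and 19%.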
